A study of Mus musculus with 8 samples.

Results

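A set of 10 genes that belong to the storage and secretory programme of white adipocytes were measured in the whole aortic tree of the mouse. They are the secreted products Adipoq, Lep, Retn and Cfd, the lipid droplet and lipolysis genes Plin1, Lipe and Pnpla2, the fatty acid carrier Fabp4, and the transcription factors Pparg and Cebpa. They were taken by symbol, 10 of the 48587 gene symbols in the count table, and all 10 were among the 16194 genes that passed the filter on low counts. The 8 libraries form 4 groups of 2: litter controls (WT) and mice with Tet2 deleted in vascular smooth muscle cells (VSMCs; Tet2KO), each given vehicle or vitamin D (VitD). The labels give no age, sex, strain, dose or time, no driver of the smooth muscle deletion, and no statement of whether a library is 1 mouse or a pool. The deletion is thus labelled for smooth muscle, not for adipocytes. Replicates are separately labelled libraries, and the p-values below measure the spread between them, which may be technical in part.

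White adipocytes store fatty acids as triglyceride in a single large lipid droplet and release them on demand. Perilipin 1 coats the droplet and restrains lipolysis, adipose triglyceride lipase (Pnpla2) and hormone-sensitive lipase (Lipe) cleave the stored lipid, and the carrier encoded by Fabp4 moves the fatty acids through the cytosol. PPARγ and C/EBPα sustain one another's expression and switch on most of the other genes of the programme. The aorta is surrounded by perivascular fat, brown-like around the thoracic and whiter around the abdominal part, so that aortic RNA can carry adipocyte transcripts.

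To show where the programme is read in the genome, the bases before the start site are printed for 4 genes on which the values below turn: Adipoq, which served as the reference within the programme, Plin1 and Lep, which varied most, and Cfd, which varied least. Each is the RefSeq promoter (build GRCm38.p6, the assembly of mm10), 5′ to 3′ on the strand of the gene, ending at the last base before the start of the gene. Capitals mark matches to TTGCNNAA, a core of the C/EBP binding motif.
Adipoq: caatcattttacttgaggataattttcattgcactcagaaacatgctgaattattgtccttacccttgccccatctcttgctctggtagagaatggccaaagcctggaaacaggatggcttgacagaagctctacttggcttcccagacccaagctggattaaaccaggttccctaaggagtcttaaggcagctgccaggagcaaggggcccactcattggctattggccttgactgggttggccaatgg
Lep: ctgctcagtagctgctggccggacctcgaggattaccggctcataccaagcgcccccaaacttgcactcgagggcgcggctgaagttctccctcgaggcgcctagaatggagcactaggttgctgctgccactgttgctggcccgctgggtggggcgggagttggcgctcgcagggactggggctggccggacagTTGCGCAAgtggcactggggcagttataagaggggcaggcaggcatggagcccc
Plin1: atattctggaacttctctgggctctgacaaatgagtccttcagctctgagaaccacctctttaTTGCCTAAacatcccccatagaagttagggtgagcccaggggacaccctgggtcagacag
Cfd: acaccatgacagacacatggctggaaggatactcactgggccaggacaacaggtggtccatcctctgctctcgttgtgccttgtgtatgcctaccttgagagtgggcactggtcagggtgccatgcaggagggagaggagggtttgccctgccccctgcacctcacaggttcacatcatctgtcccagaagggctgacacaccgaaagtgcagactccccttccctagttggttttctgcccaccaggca
The stretches are chr16:23146286-23146535 (plus strand, Adipoq), chr6:29059971-29060219 (plus strand, Lep), chr7:79732904-79733026 (minus strand, Plin1) and chr10:79890603-79890852 (plus strand, Cfd). For Plin1 the printed stretch is shorter, because the GENCODE M21 model of the gene begins upstream of the RefSeq start. Over the whole RefSeq windows of 300 bases, of which 12 belonged to 9 of the 10 genes, TTGCNNAA on either strand was found once in Lep, at 55 bases before the start, and at 2 places in Plin1, at 187 and 58 bases before the start. It was also present in the third Pparg window, at 215 and 16 bases before that start. No match to TTGCNNAA lay in the windows of Adipoq, Cfd, Retn, Lipe, Pnpla2 or Cebpa. The motif was present in 10.8% of the 32851 promoters of the table. AGGTCA, the element bound by nuclear receptors and a building block of the PPAR motif, was present in 16.3% of promoters and in the first and second Pparg windows. The direct repeat of AGGTCA with 1 free base between the copies, bound by PPAR with RXR and named DR1, was present in 0.0396% of promoters, and the repeat with 3 free bases, bound by the vitamin D receptor with RXR and named DR3, in 0.00609%. Neither was found in a window of the 9 genes. A match is a description of the letters only. In mm10 the genes themselves span, by GENCODE M21, 23146536 to 23158028 on chromosome 16 (Adipoq, plus strand), 29060220 to 29073877 on chromosome 6 (Lep, plus), 79720218 to 79732903 on chromosome 7 (Plin1, minus) and 79890853 to 79892655 on chromosome 10 (Cfd, plus). Lipe and Cebpa share 918 and 51 exonic bases with genes on the opposite strand, and since neither the labels nor the file say whether counting used strand, their counts may include reads of those genes.

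Libraries held 15679274 to 22332149 counts assigned to genes. The 10 genes together took 0.199% to 0.395% of them. The smooth muscle actin gene Acta2, a marker of the labelled tissue, stood at 7567 to 14689 CPM (the count scaled to the normalized size of its library, as in all levels below). Tet2 counts were not lower in the libraries labelled Tet2KO: they stood at 35.8 and 32.2 CPM in WT vehicle, 18.3 and 20.04 in WT VitD, 42.0 and 35.2 in Tet2KO vehicle, and 26.6 and 37.6 in Tet2KO VitD. The labels do not say which part of the gene was deleted, and other cell types also express Tet2, so a count over the whole gene is no check of the deletion, and directions between genotypes below refer to the labels. The library numbers fall into 2 ranges: both WT VitD libraries and replicate 1 of Tet2KO VitD carry numbers from the higher range, and the other 5 libraries numbers from the lower. In WT the number range and VitD cannot be told apart. In Tet2KO VitD the 2 replicates come from different ranges, and each is given by itself.

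None of the 10 genes passed the test for a change with VitD in WT aorta (edgeR quasi-likelihood test, adjusted over all genes tested, threshold 0.05), which does not show that they stayed the same. Of all genes tested, 20.1% passed in the same comparison (3251 of 16194), with 10.6% higher and 9.47% lower. Lep was the only 1 of the 10 with an unadjusted p under 0.05, against 38% of all genes, and with DESeq2 it was the only 1 called. In Tet2KO aorta none of the 10 was called either, by edgeR or by DESeq2, and none had an unadjusted p under 0.05, against 13.3% of all genes. There 0.198% of all genes were called, 0.179% higher and 0.0185% lower. The median log2 change of the 10 genes was -0.11 in WT and -0.50 in Tet2KO, beside -0.03 and -0.01 over all genes tested. The Tet2KO median leaned on replicate 1 of VitD. The mean log2 level of the 10 was 6.02 in that library and 7.36 in replicate 2, beside 7.38 and 7.30 in Tet2KO vehicle. With 2 libraries a group and 4 residual degrees of freedom the intervals were wide: the 95% interval for Plin1 in WT ran from a log2 change of -3.06 to 0.62.

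**Figure D1:**
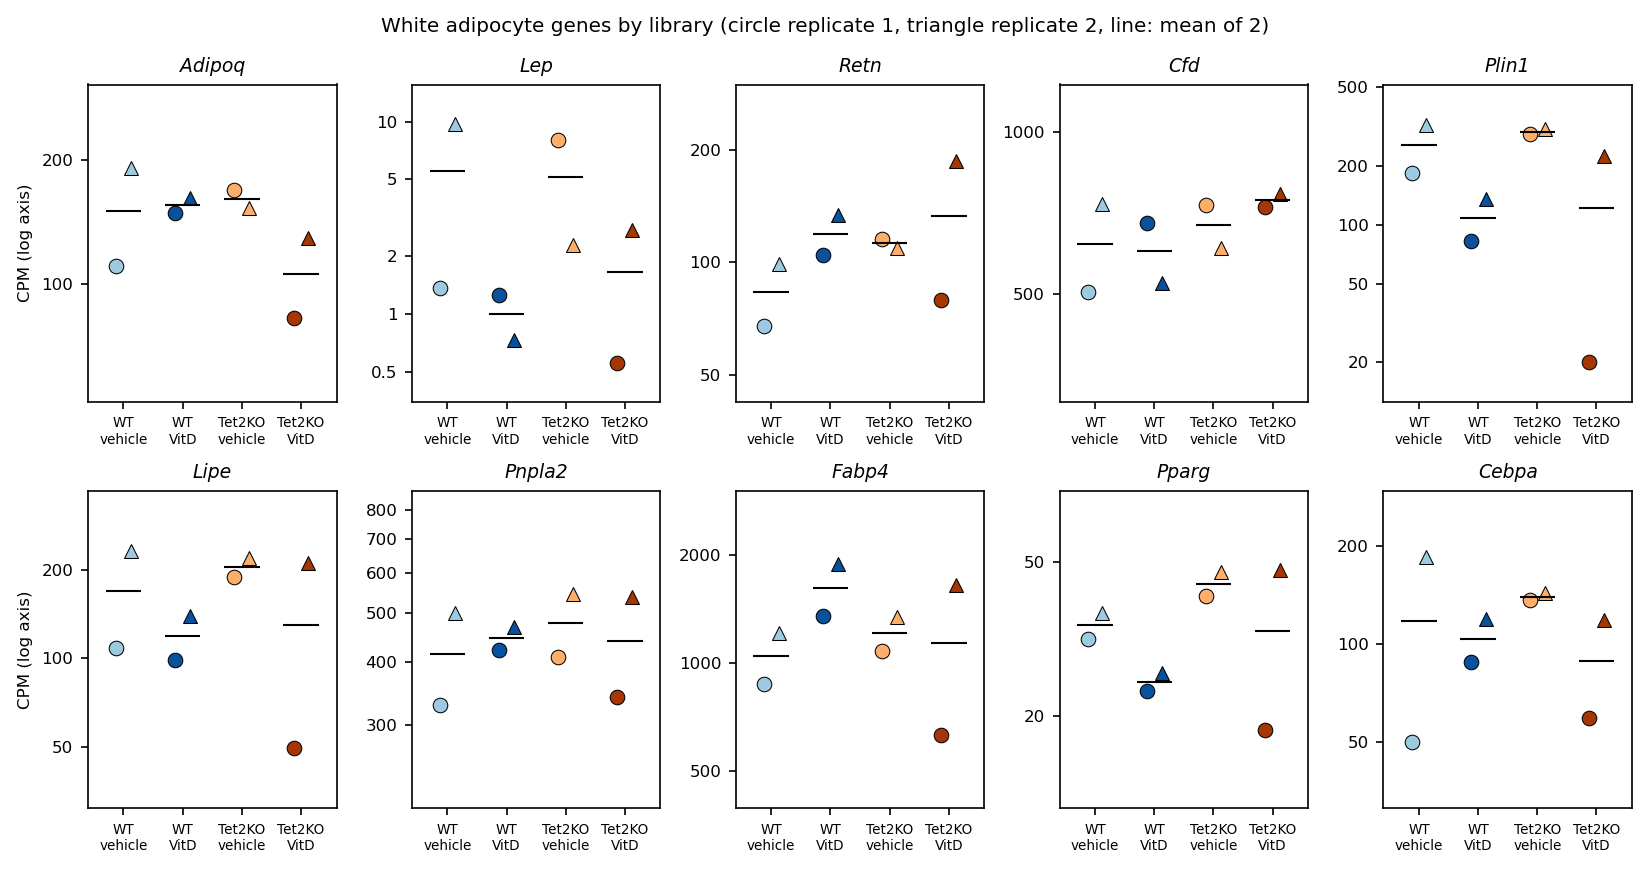
Counts scaled to library size (CPM) of the 10 white adipocyte genes in each library (log axis, a different scale for each gene; circles are replicate 1, triangles replicate 2, lines the mean of 2). Replicate 1 of Tet2KO VitD had the lowest value of 6 genes, among them Plin1 at 20.1 CPM, while Cfd lay between 504 and 767 CPM throughout.

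Among the secreted products, Adipoq encodes adiponectin, the most abundant adipocyte hormone. It was measured at 110 and 190 CPM in WT vehicle, 148 and 162 in WT VitD, 169 and 152 in Tet2KO vehicle, and 82.5 and 129 in Tet2KO VitD. The WT groups overlapped, and both Tet2KO VitD libraries lay below both Tet2KO vehicle libraries. The log2 change with VitD was 0.04 (SE 0.29, 95% interval -0.61 to 0.70, edgeR adjusted p = 0.924) in WT and -0.60 (SE 0.29, interval -1.26 to 0.06, adjusted p = 0.406) in Tet2KO.

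Lep encodes leptin, which signals the size of fat stores to the brain. Its level was low: 1.37 and 9.74 CPM in WT vehicle, 1.26 and 0.736 in WT VitD, 8.04 and 2.29 in Tet2KO vehicle, and 0.559 and 2.73 in Tet2KO VitD, from 9 to 171 counts a library. Both WT VitD libraries lay below both WT vehicle libraries, the lower of which exceeded them by a small margin. The log2 change in WT was -2.48 (SE 1.04, interval -4.84 to -0.13, edgeR unadjusted p = 0.0407, adjusted p = 0.115). Replicate 2 of WT vehicle carried that value: without it the log2 change was -0.46. With DESeq2 the adjusted p was 0.0210. In Tet2KO the groups overlapped, with a log2 change of -1.61 (SE 0.98, edgeR adjusted p = 0.483).

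Retn encodes resistin, a secreted factor that impairs insulin action in the mouse. It stood at 67.7 and 98.8 CPM in WT vehicle, 105 and 134 in WT VitD, 115 and 109 in Tet2KO vehicle, and 79.4 and 187 in Tet2KO VitD. The WT VitD libraries were both above the WT vehicle libraries, by a log2 change of 0.52 (SE 0.36, edgeR adjusted p = 0.321), while in Tet2KO VitD 1 library lay below and 1 above both vehicle libraries. Cfd encodes adipsin, complement factor D, made in large amount by adipocytes. Its values were 504 and 735 CPM in WT vehicle, 679 and 524 in WT VitD, 733 and 610 in Tet2KO vehicle, and 727 and 767 in Tet2KO VitD. Groups overlapped within both genotypes, and the highest library was 1.52 times the lowest, the narrowest range of the 10.

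Plin1 showed the widest range among the droplet and lipolysis genes. It was at 183 and 323 CPM in WT vehicle, 83.1 and 134 in WT VitD, 288 and 307 in Tet2KO vehicle, and 20.1 and 223 in Tet2KO VitD. In both genotypes the VitD libraries lay below the vehicle libraries. The log2 change was -1.22 (SE 0.81, edgeR adjusted p = 0.297) in WT and -1.29 (SE 0.81, interval -3.13 to 0.55, adjusted p = 0.499) in Tet2KO. The replicates of Tet2KO VitD differed 11.1-fold, and those of Tet2KO vehicle 1.07-fold. The fit takes its spread from all groups: without replicate 1 or without replicate 2 of Tet2KO VitD the WT change passed the test (edgeR adjusted p = 0.0196 and 0.0186), as it did with the WT groups fitted alone (adjusted p = 0.0291). With the number range added to the model the WT estimate turned to 2.25 (edgeR adjusted p = 0.173). In that model the range effect rests on the 2 Tet2KO VitD libraries alone, 1 of each range. In Tet2KO, without replicate 2 of VitD, from the lower number range, the log2 change of Plin1 was -3.89, that of Lipe -2.04 and that of Pparg -1.25. Those fits set 1 VitD library of the higher number range against 2 vehicle libraries of the lower range. VitD and the range cannot be told apart in them, and they assume that the VitD library varies like the other groups.

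Lipe, which encodes the lipase acting on diglyceride, had in Tet2KO VitD values of 49.4 CPM in replicate 1 and 210 in replicate 2, beside 189 and 219 in Tet2KO vehicle. In WT it was at 108 and 231 CPM with vehicle and 98.3 and 140 with VitD, so that the groups overlapped (log2 change -0.51, SE 0.58, edgeR adjusted p = 0.541). Pnpla2, whose product makes the first cut in stored triglyceride, was at 329 and 501 CPM in WT vehicle, 423 and 470 in WT VitD, 409 and 545 in Tet2KO vehicle, and 342 and 539 in Tet2KO VitD. All its groups overlapped, and its highest library was 1.66 times its lowest.

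Fabp4 was at 874 and 1218 CPM in WT vehicle and 1354 and 1889 in WT VitD, the opposite order to Plin1. The groups did not overlap, and the log2 change was 0.63 (SE 0.42, interval -0.32 to 1.59, edgeR adjusted p = 0.297). In Tet2KO it was at 1081 and 1342 CPM with vehicle and 631 and 1653 with VitD. Fabp4 is also expressed by capillary endothelium and by macrophages. The 7 endothelial markers summed to 1573 and 1456 CPM in WT vehicle and 2921 and 2499 in WT VitD. The 9 macrophage markers summed to 580 and 599 CPM and to 2544 and 3079. In WT 9 of 9 macrophage and 0 of 7 endothelial markers were called higher, beside 10.6% of all genes. In Tet2KO VitD replicate 1, where Fabp4 was lowest, the endothelial sum was 4545 CPM and the macrophage sum 2686, and in replicate 2 they were 1367 and 1499. The part of these cells in the Fabp4 values was not tested.

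Of the transcription factors, Pparg stood at 31.6 and 37.0 CPM in WT vehicle and 23.2 and 25.9 in WT VitD, with no overlap (log2 change -0.49, SE 0.37, interval -1.31 to 0.34, edgeR adjusted p = 0.355). In Tet2KO it was at 40.9 and 47.1 CPM with vehicle and 18.4 and 47.8 with VitD, which overlap. Cebpa had 49.8 and 184 CPM in the WT vehicle replicates, the widest gap between replicates of any group for this gene, and 87.9 and 119 in WT VitD. In Tet2KO it was at 136 and 143 CPM with vehicle and 59.1 and 118 with VitD, lower in both VitD libraries (log2 change -0.65, SE 0.53, edgeR adjusted p = 0.583).

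Counted together, both VitD libraries lay above both vehicle libraries in WT for 2 of the 10 genes (Retn and Fabp4) and below them for 3 (Lep, Plin1 and Pparg). Over all genes tested the same was true of 33.8% and 35.3%. In Tet2KO it was 0 of 10 above and 3 of 10 below (Adipoq, Plin1 and Cebpa), beside 23.7% and 22.2% of all genes. The WT counts are under these shares and the Tet2KO count below vehicle is near its share, so they are no result about these genes.

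**Figure D2:**
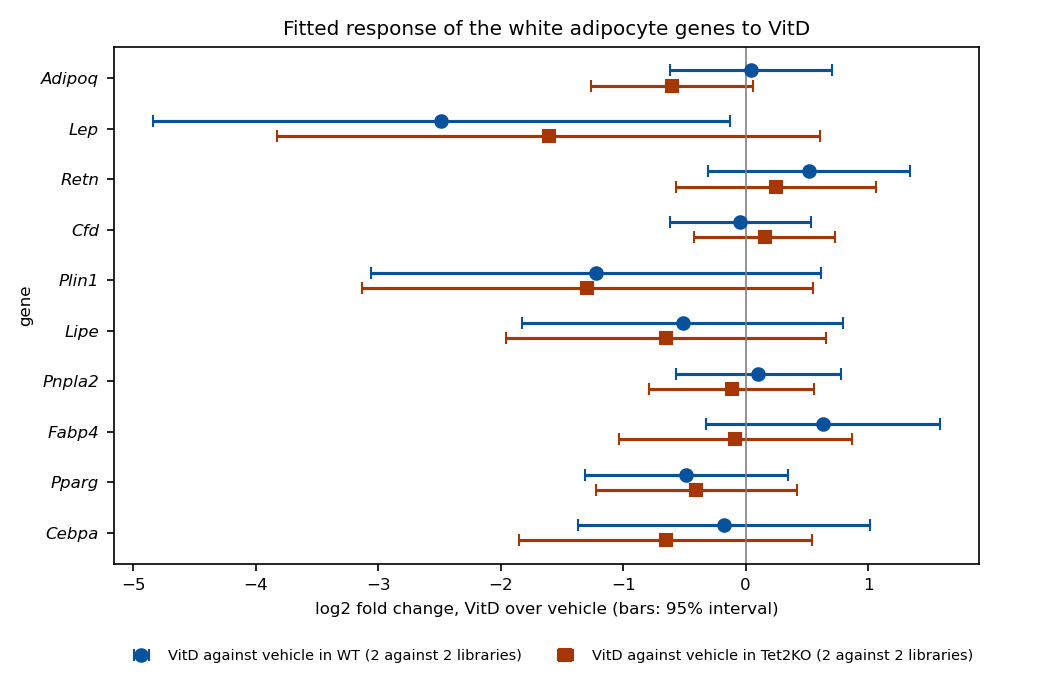
Log2 fold change of each of the 10 genes with VitD against vehicle in WT and in Tet2KO, with 95% intervals from the edgeR fit. The point estimates run from -2.48 to 0.63 in WT and from -1.61 to 0.25 in Tet2KO, and of all intervals drawn the interval of Lep in WT, -4.84 to -0.13, does not include 0.

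The genes did not keep a fixed proportion to one another. Divided by Adipoq in the same library, which removes differences in the total amount of adipocyte RNA as far as Adipoq reports it, Plin1 stood at 1.66 and 1.70 in WT vehicle and 1.70 and 2.02 in Tet2KO vehicle. In WT VitD the ratio was 0.560 and 0.831, and in Tet2KO VitD it was 0.243 in replicate 1 and 1.73 in replicate 2. The 5 libraries of the lower number range, replicate 2 of Tet2KO VitD among them, thus lay between 1.66 and 2.02. The 3 of the higher range, all VitD, lay between 0.243 and 0.831. That replicate is the only VitD library of the lower range, and VitD and the range cannot be told apart here. In WT, 4 of 9 ratios to Adipoq were lower with VitD without overlap (Lep, Plin1, Lipe and Pparg) and 2 were higher (Retn and Fabp4), beside 27.3% and 22.3% of all other genes tested divided by Adipoq in the same way. In Tet2KO none was lower and 3 were higher, beside 3.72% and 61.9% of all genes, a smaller share than over all genes on the higher side. Retn stood at 0.684 and 0.719 with vehicle and 0.962 and 1.45 with VitD, Cfd at 4.34 and 4.01 and at 8.81 and 5.95, and Pnpla2 at 2.43 and 3.58 and at 4.14 and 4.18. No test was made on these ratios. They depend on the reference: against Plin1 in place of Adipoq, 8 of 9 ratios were higher in WT and 7 of 9 in Tet2KO, and none was lower, beside 67.7% and 76.2% of all genes higher and 3.08% and 0.21% lower. Since Plin1 was itself low in most VitD libraries, most genes gave a higher ratio to it, and these counts are no result about the 9. Pnpla2 kept the steadiest ratio to Adipoq, with a log2 range of 0.79 over the 8 libraries, against 3.05 for Plin1 and 3.49 for Lep.

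**Figure D3:**
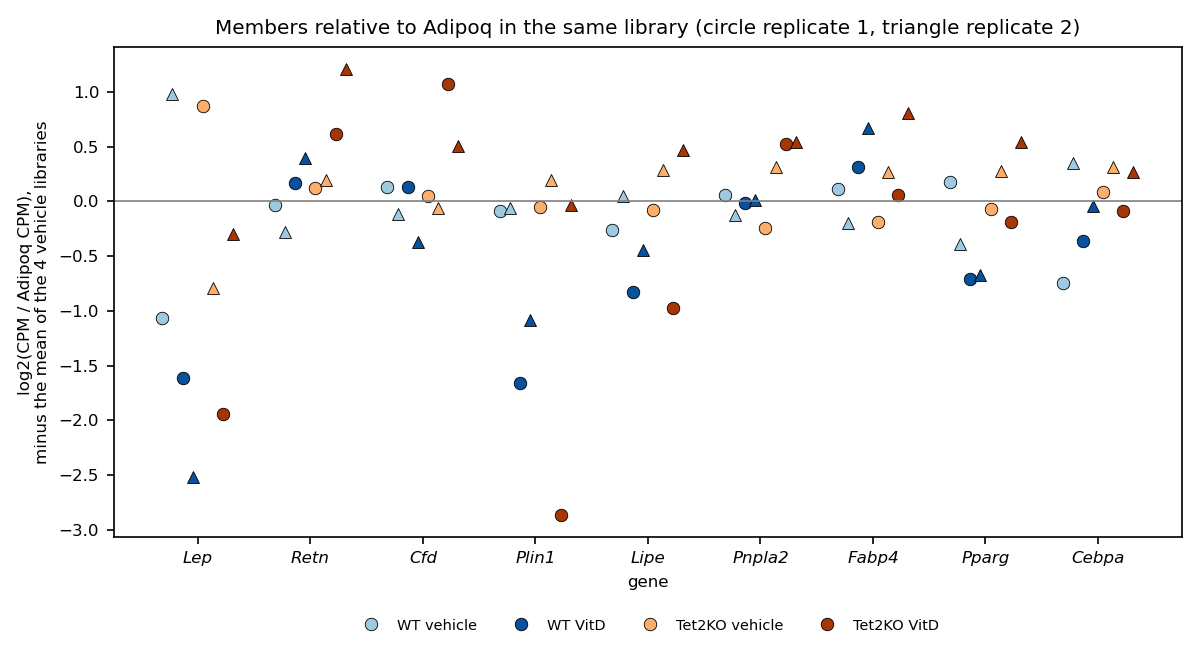
Log2 ratio of each of the other 9 genes to Adipoq in each library, from which the mean log2 ratio of the 4 vehicle libraries is subtracted, so that 0 is the vehicle mean (circles are replicate 1, triangles replicate 2). For Plin1 the 4 vehicle libraries and replicate 2 of Tet2KO VitD lie together (ratios of 1.66 to 2.02 before the subtraction), and the other 3 VitD libraries lie below them (0.243 to 0.831).

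Levels can be set against one another only per length of transcript. As CPM per kilobase of the principal transcript in WT vehicle, Fabp4 was highest (1168), followed by Cfd (672), Pnpla2 (231), Adipoq (116), Plin1 (89.9), Retn (73.1), Lipe (47.0), Cebpa (44.6), Pparg (19.4) and Lep (1.70). From Adipoq down to Pparg each gene overlapped with the next in that order in its 2 libraries, while Fabp4, Cfd, Pnpla2 and Lep stood clear of their neighbours. Fabp4, Cfd and Pnpla2 led and Pparg and Lep came last in all 4 groups, though in Tet2KO VitD the libraries of Fabp4 and Cfd overlapped. Per kilobase of all annotated exons Cfd stood above Fabp4, whose exons sum to 4489 bases against 896 in the principal transcript.

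Between genotypes none of the 10 genes was called. Under vehicle the log2 differences of Tet2KO from WT ran from -0.11 to 0.43, positive for 9 and negative for 1, and 0% of all genes were called by edgeR (481 genes, or 2.97%, had an unadjusted p under 0.05, none of them among the 10). The mean log2 level of the 10 was 6.58 and 7.53 in WT vehicle, below and above the 7.38 and 7.30 of Tet2KO vehicle. The signs of genes measured in the same libraries are not independent, so their split is no result about these genes. Retn and Pparg were higher in both Tet2KO libraries without overlap, by 0.43 (SE 0.36) and 0.36 (SE 0.36), which is 2 of 10 beside 14.3% of all genes. Under VitD 0% of genes were called (1719, or 10.6%, at an unadjusted p under 0.05, none of them among the 10). Adipoq was lower in both Tet2KO libraries (log2 difference -0.55, SE 0.29, edgeR adjusted p = 0.489) and Cfd higher (0.31, SE 0.25, adjusted p = 0.624), 1 of 10 each way beside 22.2% of all genes higher and 21.6% lower. Without replicate 1 of Tet2KO VitD, Pparg was called higher there (log2 difference 0.95, edgeR adjusted p = 0.0402, from 0.44 and 0.634 with it). That fit sets 1 Tet2KO library of the lower number range against 2 WT libraries of the higher range and assumes that it varies like the other groups, so genotype and range cannot be told apart in it, and with the range in the model of all 8 libraries the difference was -0.41. The difference of the VitD effect between genotypes, tested as an interaction, was called for 0% of all genes (1006, or 6.21%, at an unadjusted p under 0.05) and for none of the 10. Its estimates ran from -0.72 for Fabp4 (SE 0.59, edgeR adjusted p = 0.875) to 0.88 for Lep (SE 1.40, adjusted p = 0.932). DESeq2 called none of the 10 in any of these 3 comparisons.

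The genes around these 10 were taken from 11 lists of fat biology with 115 genes tested, of which 12 were called lower with VitD in WT (10.4%) and 5 higher (4.35%), 14.8% in all. Over all genes tested the shares were 9.47% lower and 10.6% higher, 20.1% in all, so that calls were no more frequent in these lists than in the table, and the genes named below are described singly. De novo lipogenesis, the making of fatty acids from glucose, had 3 of 10 genes called lower and none higher (beside 9.47% and 10.6% of all genes): Fasn, fatty acid synthase (log2 change -4.24, SE 1.28, edgeR adjusted p = 0.0478), the carbohydrate sensor Mlxipl (-2.06, SE 0.58, adjusted p = 0.0398) and the carboxylase Acacb (-1.70, SE 0.51, adjusted p = 0.0459). The median over the 10 genes of the list was -2.09, and over all genes tested -0.03. Fasn was at 1067 and 4544 CPM in WT vehicle, 155 and 141 in WT VitD, 2479 and 3879 in Tet2KO vehicle, and 112 and 3343 in Tet2KO VitD. As with Plin1, the 3 low libraries are those of the higher number range, all VitD. With the range in the model the WT estimate for Fasn was 0.65, where the range effect rests on the 2 Tet2KO VitD libraries alone. The summed level of the list was 960 to 2444 CPM in those 3 libraries and 4815 to 16983 in the other 5.

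In the list of insulin response, 2 of 7 genes were called lower and none higher, beside 9.47% and 10.6% of all genes, with a median of -0.91. Which cells of the aorta the values of these genes came from was not tested. Irs1, the docking protein of the insulin receptor, fell from 36.3 and 24.5 CPM to 8.80 and 5.94 in WT (log2 change -2.05, SE 0.32, edgeR adjusted p = 0.00872). In Tet2KO it was at 29.1 and 29.1 CPM with vehicle and 11.3 and 18.6 with VitD (log2 change -0.96, adjusted p = 0.261). The receptor gene Insr fell from 141 and 121 CPM to 69.4 and 70.4 in WT (-0.91, SE 0.19, edgeR adjusted p = 0.0192), and in Tet2KO it was at 118 and 137 CPM with vehicle and 112 and 146 with VitD.

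Of the other lipid droplet proteins 1 of 11 measured was called, Plin4, a coat protein of adipocyte droplets, which fell from 414 and 529 CPM to 196 and 165 in WT (log2 change -1.39, SE 0.31, edgeR adjusted p = 0.0213). It was at 502 and 430 CPM in Tet2KO vehicle and at 228 and 438 in Tet2KO VitD. Of 13 partners and controllers of lipolysis 1 was called, Adrb3, the β3-adrenergic receptor that starts lipolysis, which fell from 50.1 and 122 CPM to 13.8 and 11.6 (-2.76, SE 0.81, edgeR adjusted p = 0.0440). It was at 96.8 and 71.9 CPM in Tet2KO vehicle and 8.01 and 68.5 in Tet2KO VitD. None of 16 genes of fatty acid uptake and triglyceride synthesis was called. The smallest p belonged to Lpin1, a phosphatidate phosphatase (log2 change -1.17, SE 0.38, edgeR adjusted p = 0.0587). The medians of these 3 lists were 0.04, -0.49 and -0.43. 
Among 13 other measured adipose-secreted factors, 3 fell and 1 rose in WT (median -0.63). C1qtnf3, an adiponectin relative, fell from 15.6 and 11.2 CPM to 1.72 and 1.30 (log2 change -3.15, SE 0.32, edgeR adjusted p = 0.00273). It also fell in Tet2KO, from 16.5 and 13.3 CPM to 1.68 and 2.02 (-3.00, SE 0.31, edgeR adjusted p = 0.0102), where both replicates were alike although Plin1 and Fasn were not. In WT its call held without each single library in turn (edgeR adjusted p from 0.000621 to 0.0414), and when the model included the number range it was -2.88 (adjusted p = 0.0914 in WT and 0.0543 in Tet2KO). C1qtnf3 was the only gene of these 11 fat-related lists called in Tet2KO. Retnla (-1.45, SE 0.40, edgeR adjusted p = 0.0380), a resistin relative, and Rbp4 (-0.89, SE 0.26, adjusted p = 0.0425), the plasma carrier of retinol, fell in WT. The angiotensinogen gene Agt rose there (1.85, SE 0.49, edgeR adjusted p = 0.0334) at a low level, from a mean of 1.44 to 5.22 CPM. None of 7 adipokine receptor genes was called. The smallest p values were those of the adiponectin receptor Adipor1 (log2 change 0.52, SE 0.21, edgeR adjusted p = 0.105) and the adiponectin-binding cadherin Cdh13 (-0.51, SE 0.21, adjusted p = 0.117).

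Of 11 other adipogenic regulators 1 was called higher and 1 lower in WT, near the shares of all genes. Cebpd, an early C/EBP factor that is also an acute phase gene, rose from 61.6 and 43.5 CPM to 219 and 172 (log2 change 1.89, SE 0.29, edgeR adjusted p = 0.00748), and Ebf1 fell (-1.04, SE 0.26, adjusted p = 0.0296). In Tet2KO Cebpd was at 57.3 and 62.1 CPM with vehicle and 209 and 125 with VitD (1.48, edgeR adjusted p = 0.0886). Of 8 inhibitors of adipogenesis, Sox9, the cartilage factor, rose (1.03, SE 0.31, edgeR adjusted p = 0.0462) and Ddit3, a stress-induced partner of C/EBP factors, fell (-0.995, SE 0.28, adjusted p = 0.0377). The level of Sox9 was low, with WT means of 2.57 CPM with vehicle and 5.26 with VitD. Of 8 adipose progenitor markers 1 was called, Ly6a, the antigen Sca-1, which rose (1.79, SE 0.24, edgeR adjusted p = 0.00515); endothelial cells express it too. Of 11 measured brown adipocyte markers 1 was called, Dio2, the deiodinase that activates thyroid hormone, which rose from 77.9 and 67.0 CPM to 199 and 393 (2.03, SE 0.35, edgeR adjusted p = 0.0107), while the median of that list was -0.52.

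With a term for the library number range in the model, none of these genes was still called in WT in the same direction. Adrb3 and Fasn turned sign, and the others kept their sign but were no longer called. In that model the range effect rests on the 2 Tet2KO VitD libraries alone, 1 of each range. Most of these WT calls also did not hold in fits with 1 library fewer, which leave fewer degrees of freedom. Those of Plin4, Adrb3, Insr, Fasn, Mlxipl, Acacb, Agt, Ebf1 and Sox9 ended when any 1 of the 4 WT libraries was left out (edgeR adjusted p of Fasn up to 0.236, of Plin4 up to 0.174), and, except for Plin4 and Insr, also without either Tet2KO vehicle library. Those of Retnla, Rbp4, Ddit3 and Dio2 ended without either WT vehicle library or without replicate 2 of WT VitD, and those of Retnla and Rbp4 also without either Tet2KO vehicle library. The Irs1 call ended without replicate 1 of WT vehicle or replicate 2 of WT VitD, that of Ly6a without replicate 1 of WT vehicle (edgeR adjusted p = 0.0567) and that of Cebpd without replicate 2 of WT vehicle (adjusted p = 0.05001). In Tet2KO, C1qtnf3 was not called without either vehicle library. Without replicate 2 of VitD the Tet2KO log2 changes were -1.03 for Plin4, -3.39 for Adrb3, -1.37 for Irs1 and -4.82 for Fasn. They were 1.81 for Cebpd and 1.31 for Ly6a, all in the direction taken in WT. That fit rests on 1 VitD library, from the higher number range like both WT VitD libraries. VitD and the range cannot be told apart in it.

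**Figure D4:**
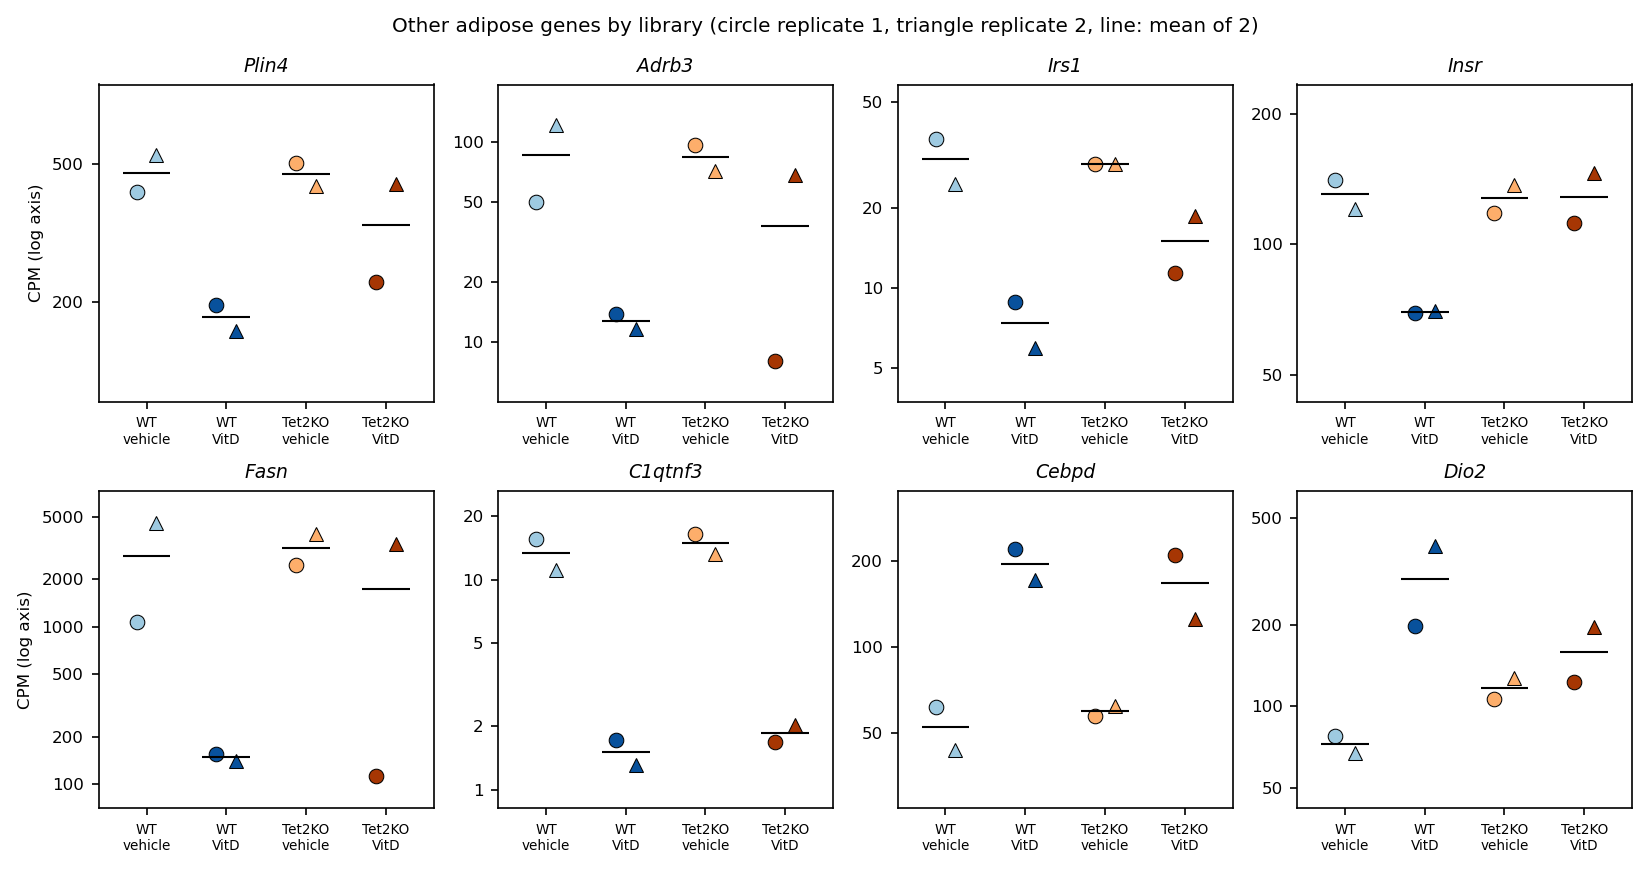
Counts scaled to library size (CPM) of 8 genes from the lists of fat biology in each library (log axis, a different scale for each gene; circles are replicate 1, triangles replicate 2, lines the mean of 2). Fasn and Adrb3 are low in both WT VitD libraries and in replicate 1 of Tet2KO VitD, whereas C1qtnf3 is between 1.30 and 2.02 CPM in all 4 VitD libraries.

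Summed levels of cell type markers are given here beside these values. The 12 brown adipocyte markers summed to 685 and 1209 CPM in WT vehicle, 1201 and 1068 in WT VitD, 841 and 976 in Tet2KO vehicle, and 323 and 1231 in Tet2KO VitD, so that the groups overlapped within both genotypes. Among them Ucp1 averaged 349 CPM in WT vehicle and 302 in Tet2KO vehicle, beside 150 and 161 for Adipoq. The parts of white and of brown adipocytes in the values of the 10 genes were not tested. The 7 smooth muscle markers summed to 28814 and 29830 CPM in WT vehicle and 22388 and 15039 in WT VitD. In WT 2 of 7 were called lower (Myh11 and Smtn), beside 9.47% of all genes. Their Tet2KO sums were 29616.5 and 27546 CPM with vehicle and 20218 and 27882 with VitD. All 6 skeletal muscle markers and 3 of 4 mesothelial markers were called higher in WT, beside 10.6% of all genes. The skeletal sums there were 26.3 and 31.0 CPM with vehicle and 96.2 and 419 with VitD, so that the VitD replicates were far apart. The mesothelial sums were 28.8 and 27.3 CPM with vehicle and 79.1 and 170 with VitD. Thymocyte markers summed to 67.7 and 1.71 CPM in WT vehicle, 10.2 and 21.2 in Tet2KO vehicle, and 1.24 to 1.79 in the 4 VitD libraries. Of 4 tested, 2 were called lower in WT (Rag1 and Dntt), beside 9.47% of all genes. These calls lean on 1 WT vehicle library: the vehicle means were 18.7 CPM (SD 26.4) for Rag1 and 6.11 (SD 8.32) for Dntt. In bulk tissue, fewer adipocytes and less of a transcript in each adipocyte cannot be told apart, and the part of tissue makeup in the values above was not tested. The log2 changes also went with gene length: over 15702 genes the Spearman correlation of exonic length with the log2 change under VitD was -0.19 in WT and -0.14 in Tet2KO, and for Tet2KO against WT it was 0.14 under vehicle and 0.28 under VitD, a description across genes, which are not independent replicates.

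The genes whose pattern over the 8 libraries was most like the mean log2 level of the 10 were, of 11438 genes averaging 5 CPM or more, Dgat1 (Pearson r 0.988), which makes the last step of triglyceride synthesis, Tspan15 (0.984), Pigq (0.982), the carnitine acetyltransferase Crat (0.969), Dlst (0.968) of the citric acid cycle, and Agpat2 (0.968), an earlier step of triglyceride synthesis. The 8 libraries share depth, tissue makeup and number range across these genes, and the values describe likeness only.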

How the data were processed

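RNA-seq counts per gene for 8 libraries of whole mouse aortic tree were used. Per the labels' protocols, RNA was extracted with TRIZOL and poly-A libraries were made with a stranded TruSeq kit. Per the submitters' processing notes, Trimmomatic 0.39, STAR 2.7.8a, featureCounts 2.0.2 and build mm10 were used by the authors to make the deposited counts, which are whole numbers and not normalized. Neither the annotation release, the strand setting nor the treatment of multi-mapping reads is stated there. Counts were scaled to CPM with TMM normalization. Genes were filtered with filterByExpr and fitted with edgeR 4.0.16 (R 4.3.3) quasi-likelihood as 4 group means, with Benjamini-Hochberg adjustment over all 16194 genes tested and a threshold of 0.05. The fit was tested on simulated data. SE is the log2 change divided by the square root of F, and 95% intervals use 8.92 degrees of freedom. Log2 changes are VitD minus vehicle or Tet2KO minus WT. DESeq2 1.42.0, other filters and scalings, a replicate block, a term for the library number range, and leaving out each library were tried. Symbols were matched to GENCODE M21 (46384 of 48587, 95.5%), 3 of the listed genes by an older symbol. Replicates differed by more than sampling noise, so no library was counted as deposited more than once. The members and lists were chosen with earlier results of these data known. Named genes are the 10 members and, from each other list, up to 4 called genes with the largest change with VitD in WT, or, in lists with no call, up to 2 of lowest p. Of the list genes, Tet2KO values are given beside these for Fasn, Irs1, Insr, Plin4, Adrb3, C1qtnf3 and Cebpd, and not for the others. Tet2, Acta2, Ucp1 and the called smooth muscle and thymocyte markers are named outside that rule. The promoter of Fabp4 was not used here.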

Additional observations from a re-analysis of the deposited data

How the results depend on the processing

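The count of the 10 white adipocyte genes called was 0 in all 5 comparisons. For VitD in WT it became 2 with no filter on low counts (Lep and Plin1), 1 with the WT groups alone (Plin1), 1 with DESeq2 (Lep), and 0 to 1 with each library left out. For VitD in Tet2KO it became 2 with no filter (Lep and Plin1) and 0 to 3 with each library left out, the 3 being Plin1, Lipe and Pparg without replicate 2 of VitD. For genotype under VitD it was 0 to 1. Over all genes, the 3251 called with VitD in WT fell to 58 with a term for the library number range, of which 56 were higher, and ranged from 140 to 4946 with each library left out. The 32 called in Tet2KO became 1225 with no filter, 20 with the range, 2 with the groups alone, 461 with DESeq2, and 0 to 1898 with each library left out. For genotype under vehicle, 0 became 164 with no filter and 18 with DESeq2. For genotype under VitD, 0 became 610 with no filter, 16 with the range, 96 with DESeq2, and 0 to 674 with each library left out. For the interaction, 0 became 403 with no filter, 7 with the range, 18 with DESeq2, and 0 to 37 with each library left out; the groups-alone fit does not apply to it and was not run. With Plin1 as the reference, ratios lower with VitD in WT went from 4 to 0, higher from 2 to 8, and higher in Tet2KO from 3 to 7. With that term for the number range, log2 changes turned sign in WT for Cfd (0.034), Plin1 (2.25), Lipe (1.57), Pparg (0.89), Cebpa (0.82), Adrb3 (0.33) and Fasn (0.65), and in Tet2KO for Lipe (0.044), Pnpla2 (0.18), Fabp4 (0.45), Pparg (0.12) and Fasn (0.072). Between genotypes under VitD, Pparg turned to -0.41, and the interaction of Lep to -0.70. The covariate rests in Tet2KO on 1 library against 1. Of the calls of named genes in WT and Tet2KO, 16 ended under it with their sign kept, and the other called genes, Adrb3 and Fasn, turned sign. Replicate numbers were shared between groups, but same-numbered libraries did not deviate together (correlations from -0.16 to 0.16). With the replicate number as a block, 2474 genes were called for VitD in WT, and the log2 change of Cebpa turned from -0.18 to 0.014. With each library left out, signs were not kept in WT (ranges -0.29 to 0.49 for Adipoq, -0.28 to 0.26 for Cfd, -0.95 to 0.14 for Lipe, -0.16 to 0.44 for Pnpla2 and -0.82 to 1.06 for Cebpa), in Tet2KO (-0.50 to 0.75 for Retn, -2.04 to 0.053 for Lipe, -0.48 to 0.19 for Pnpla2, -0.94 to 0.46 for Fabp4, -1.25 to 0.13 for Pparg and -4.82 to 0.081 for Fasn), for genotype under VitD (-0.41 to 0.95 for Pparg) and for the interaction (-1.15 to 2.03 for Lep). The causes of these shifts were not tested. Upper quartile scaling, DESeq2 size factors and a filter of 1 CPM in 2 libraries changed no direction and no call of the results listed. Lep had 9 to 171 counts a library, the fewest of the 10 genes, and whether depth limits its value was not tested.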
